A study of Mus musculus with 2 samples.

Results

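Tbx15, Tbx18, Tcf21, Hoxa5, Hoxa7, Hoxc8, Hoxc9, Hoxc10, Meox1 and Meox2 are transcription factor genes that mark where in the body a mesodermal cell arose. These 10 genes, of 31053 in the count matrices, were chosen as markers of depot identity and were followed in adipocytes and stroma of inguinal white adipose tissue (iWAT, a subcutaneous depot). UMIs (unique molecular identifiers, 1 for each captured RNA molecule) were summed over the nuclei of each marker-defined cell class in each library. Of the 10 genes, 9 had at least 1 UMI in a kept nucleus, and Tcf21 had none.

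The study compared iWAT of male C57BL/6 mice fed Western diet for 4 weeks. All mice carried the floxed Lexis allele (Lexis fl/fl), and the KO group also carried Adipoq-cre, whose adiponectin promoter acts in adipocytes and not in stroma, vessels or immune cells. Lexis is a long noncoding RNA. There was 1 single-nucleus RNA-seq library for the genotype labelled Lexis WT (Cre-negative, floxed) and 1 for the genotype labelled Lexis KO, each from the pooled fat of 3 mice with the lymph node taken out. The age of the mice is not given in the labels. The names of the deposited matrices carry the opposite genotype to the labels. Lexis is not analysed here, which leaves the labels without a check against the deleted gene, so every direction below holds for the libraries as labelled. With 1 library per genotype there was no test of genotype, and genotype, pool of mice and library preparation cannot be told apart.

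Hox genes lie in 4 clusters, are numbered by their place along the cluster, and are switched on in that order from head to tail in the embryo, so that a cell keeps a Hox code of its level along the body. The T-box genes Tbx15 and Tbx18 and the homeobox genes Meox1 and Meox2 pattern the mesoderm of trunk, limb and vessels, and Tcf21, a basic helix-loop-helix factor, is known from progenitors of visceral fat. In fat, Tbx15 and the posterior Hoxc genes are known as marks of the inguinal depot. Hox proteins bind DNA together with cofactors of the Pbx, Meis and Pknox families.

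Promoter sequence was read to see whether members that share a pattern share letters at their start. RefSeq windows of GRCm38.p6, which run from 250 bases before to 50 bases after the annotated start, matched 5 of the 10 genes (Tbx18, Tcf21, Hoxa5, Hoxa7 and Meox2). The windows printed here are those of Meox2, the only one with a motif match, of Hoxa5 and Hoxa7, which lie close together in the Hoxa cluster, and of Tcf21, which was not detected. Each is given 5' to 3' on the strand of the gene, with a TATA motif match in capitals.
Meox2 (chr12:37108290-37108589, plus strand): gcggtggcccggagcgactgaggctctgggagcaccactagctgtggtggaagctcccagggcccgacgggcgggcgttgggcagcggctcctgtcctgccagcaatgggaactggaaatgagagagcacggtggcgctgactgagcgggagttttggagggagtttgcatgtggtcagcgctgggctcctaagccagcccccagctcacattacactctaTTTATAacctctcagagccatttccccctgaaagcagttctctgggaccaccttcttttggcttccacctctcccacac
Hoxa5 (chr6:52204538-52204837, minus strand): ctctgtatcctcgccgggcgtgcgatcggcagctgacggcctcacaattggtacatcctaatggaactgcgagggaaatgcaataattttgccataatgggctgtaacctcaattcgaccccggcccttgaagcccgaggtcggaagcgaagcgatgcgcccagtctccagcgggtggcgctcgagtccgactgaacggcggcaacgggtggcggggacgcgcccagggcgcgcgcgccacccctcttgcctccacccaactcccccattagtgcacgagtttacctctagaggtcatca
Hoxa7 (chr6:52218524-52218823, minus strand): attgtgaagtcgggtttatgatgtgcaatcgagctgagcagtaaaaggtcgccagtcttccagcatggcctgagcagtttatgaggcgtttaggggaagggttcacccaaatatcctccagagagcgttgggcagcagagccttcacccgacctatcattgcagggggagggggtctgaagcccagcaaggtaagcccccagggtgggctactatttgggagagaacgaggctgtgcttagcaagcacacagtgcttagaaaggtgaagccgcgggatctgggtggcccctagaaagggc
Tcf21 (chr10:22820094-22820393, minus strand): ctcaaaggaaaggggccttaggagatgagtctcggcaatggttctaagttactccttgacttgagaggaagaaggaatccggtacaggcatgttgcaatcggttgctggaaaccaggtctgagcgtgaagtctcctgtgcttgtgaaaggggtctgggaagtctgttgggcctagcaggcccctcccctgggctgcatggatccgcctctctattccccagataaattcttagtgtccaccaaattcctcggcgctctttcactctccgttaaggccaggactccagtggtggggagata
Both strands were searched for a joint HOX and PBX motif (TGATNNAT), a T-box half-site (AGGTGT) and the TATA motif (TATAAA). The first pair of motifs had no match in any of the 5 windows, against 8.85% and 13.7% of all 32851 windows of this length. TATAAA matched in Meox2 alone, in reverse orientation from base 222 of the window, against 13.6% of all windows. The share of G or C was 60.7% for Meox2, 61.7% for Hoxa5, 55.7% for Hoxa7, 53.3% for Tcf21 and 51.7% for Tbx18, with a median of 52.7% over all windows. A match here describes the letters only.

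The WT-labelled library held 9376351 deposited UMIs and 3503 kept nuclei with a median of 1194 UMIs, and the KO-labelled library held 19655049 UMIs and 2852 kept nuclei with a median of 3876.5. Adipocytes numbered 422 and 895, and ASPCs (adipose stem and progenitor cells, here with fibroblasts) 294 and 787. Endothelial nuclei numbered 92 and 122, immune nuclei (lymphocytes and myeloid cells together) 2427 and 943, mural cells 9 and 43, and myocytes 0 and 53. All 12 adipocyte markers were detected in adipocytes of either library, at a sum of 14990 and 25210 CPM (UMIs of a gene per 1000000 UMIs of its class and library), and all 11 ASPC markers in ASPCs, at 28312 and 31278 CPM. No member was used as a marker, and the members were left out of the genes that formed the clusters. Lymphocytes made up 59.7% of kept nuclei in the WT-labelled library and 3.79% in the other. The 53 nuclei with muscle markers came from the KO-labelled library only. The libraries shared 10 barcode sequences among kept nuclei.

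Where a sentence gives a pair of values, the WT-labelled library comes first. Adipocytes and ASPCs lay in different clusters in the 2 libraries. Of the adipocytes, 890 of those labelled KO formed a cluster of their own and the 422 labelled WT shared another with 5 nuclei labelled KO. Most ASPCs labelled KO lay in a pair of clusters led by Sfrp2 and by Sntg1 (382 and 375 nuclei), and 289 of those labelled WT in a cluster led by Col3a1. Endothelial nuclei of both libraries shared 1 cluster. Levels are in CPM with exact 95% Poisson intervals and ratios of CPM with exact conditional binomial intervals. Both cover counting error within these libraries and nothing else. CPM was not divided by gene length, so levels are compared between classes and libraries and not between genes.

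Of the 10 genes, 9 were counted. The 5 Hox genes were counted in both adipocytes and ASPCs, Tbx15, Tbx18 and Meox2 were highest in stroma, vessels or muscle, and Meox1 was near the limit of detection. The level in immune nuclei served as the background of the same library, and whether these nuclei lack the genes was not tested. Of the immune nuclei, 2091 of 2427 labelled WT were lymphocytes and 835 of 943 labelled KO were myeloid, so the backgrounds differ in cell type. A gene was called above the background where the whole interval of the ratio lay above 1. The background share is over all genes with more than 3 UMIs on either side. Members were counted past the same limit. In adipocytes, 5 of 8 were above the background in the WT-labelled library (the 5 Hox genes, where 19.5% of all genes were). In the KO-labelled library 6 of 7 were (Tbx15 as well, 24.1% of all genes). In ASPCs it was 8 of 9 (16.2% of all genes) and 9 of 9 (23.3%), and in endothelial nuclei 3 of 8 (11.6%) and 3 of 7 (13.9%). In the KO-labelled library 5 of 7 were above the background in mural cells (11.1%) and 4 of 6 in myocytes (12.3%).

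**Figure D1:**
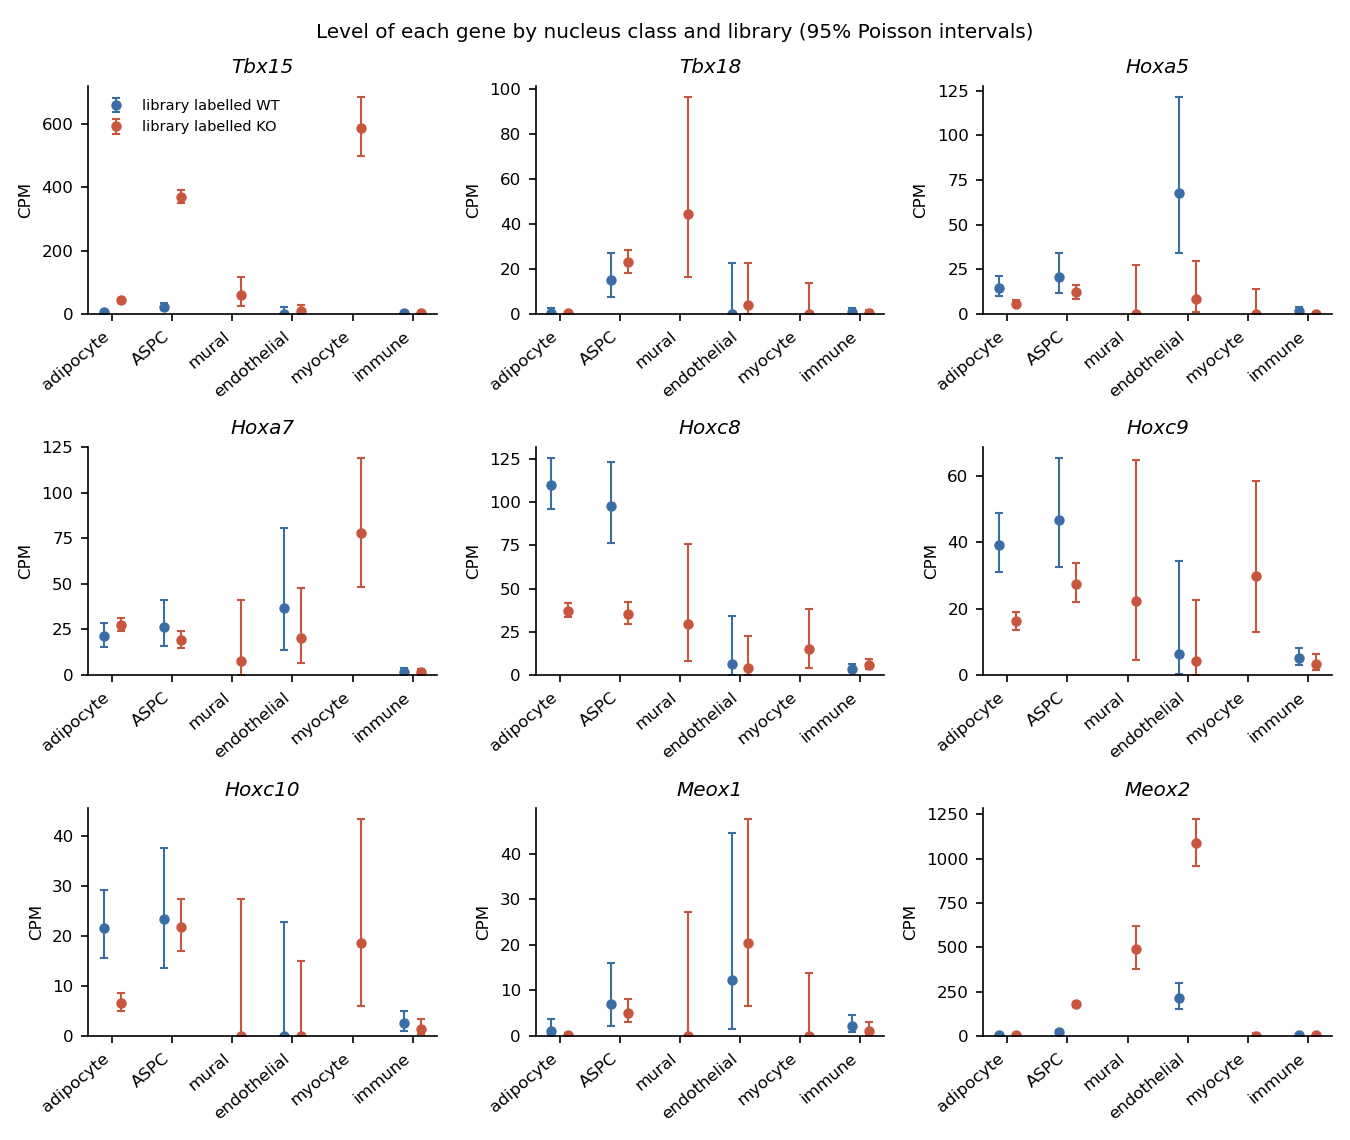
Level in CPM (linear axes) of 9 members in each class of at least 20 nuclei, blue for the WT-labelled library and red for the KO-labelled library, with exact 95% Poisson intervals; Tcf21, at 0 UMIs, is not drawn. Tbx15 is highest in myocytes and ASPCs labelled KO, at 587 and 370 CPM, Meox2 in endothelial nuclei, and Hoxc8 in adipocytes and ASPCs of either library.

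Tbx15 (ENSMUSG00000027868, chr3:99240348-99354260 of GRCm38.p6) encodes a T-box factor known from inguinal fat, limb mesenchyme and fast muscle fibres. In the WT-labelled library it was counted at 20.7 CPM in ASPCs (15 UMIs in 15 nuclei), 5.53 in adipocytes (11 UMIs), 3.44 in immune nuclei and 0 in endothelial nuclei. In the KO-labelled library it was counted at 370 CPM in ASPCs (1228 UMIs, interval 349 to 391), 43.9 in adipocytes (380 UMIs, 39.6 to 48.5), 8.16 in endothelial nuclei and 1.69 in immune nuclei. ASPCs thus stood above adipocytes in both libraries, by 3.74 times (1.60 to 8.99) and by 8.43 times (7.50 to 9.48). The transcript was spread over the ASPCs labelled KO: 61.5% of 787 nuclei (58.0 to 64.9) held at least 1 UMI, and the 3 nuclei with the most held 3.50% of the UMIs.

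The 53 myocyte nuclei of the KO-labelled library held the highest level of Tbx15, 587 CPM (158 UMIs, 499 to 686), which was 1.59 times that of ASPCs (1.34 to 1.88). Mural cells of that library held 59.1 CPM from 8 UMIs, which did not separate from adipocytes. The adipocyte level labelled WT was within counting error of the immune background, at 1.61 times it (0.633 to 4.09), whereas the level labelled KO was 26.0 times it (11.04 to 80.5). ASPC markers were also counted in adipocytes, all 11 of them, at 764 CPM summed in the KO-labelled library, or 2.44% of their level in ASPCs, and Tbx15 stood at 11.9% of its ASPC level. In the WT-labelled library the markers stood at 1326 CPM, or 4.69%.

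Tbx18 (ENSMUSG00000032419, chr9:87702800-87731260), a T-box gene known from pericytes and other perivascular stroma, was counted in stroma and hardly in adipocytes. ASPCs held 15.2 CPM in the WT-labelled library (11 UMIs) and 22.9 in the KO-labelled library (76 UMIs). Adipocytes held 1 and 3 UMIs, or 0.503 and 0.346 CPM, so that ASPCs stood 30.1 times (4.38 to 1297) and 66.1 times (21.8 to 327) higher. The adipocyte share of the ASPC level in the KO-labelled library, 1.51%, was below the 2.44% of the summed ASPC markers. Mural cells labelled KO held 44.3 CPM from 6 UMIs in 5 of 43 nuclei, a level that did not separate from that of ASPCs at 1.94 times (0.690 to 4.42).

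Among 15 T-box genes, 6 had at least 50 UMIs over adipocytes and ASPCs of both libraries and 5 had 0 UMIs in these classes (Tbx4, Tbx10, Tbx19, Tbx20 and Tbx22). Of the 4 that could be compared between the libraries in adipocytes, Tbx15 was the only one past 2-fold, and Tbx3, Tbx21 and Mga lay between. Tbx3, a limb and breast patterning gene, was at 11.6 and 6.92 CPM in adipocytes and 6.89 and 5.42 in ASPCs. Mga, a T-box factor of the Myc network found in most cells, was at 132 and 88.5 CPM in adipocytes and 150 and 148 in ASPCs.

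Tcf21 (ENSMUSG00000045680, chr10:22817263-22820143) had 0 UMIs in either deposited matrix, before any filter. Over the kept nuclei the exact upper limit for a count of 0 was 0.556 CPM in the WT-labelled library and 0.236 in the KO-labelled library. In ASPCs alone the limits were 5.08 and 1.11 CPM. These limits cover counting error only and do not show that the gene was silent.

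Hoxa5 (ENSMUSG00000038253, chr6:52201754-52204587) is an anterior trunk Hox gene that is known to act in adipocyte differentiation. It was counted in adipocytes at 14.6 CPM in the WT-labelled library (29 UMIs) and 5.77 in the KO-labelled library (50 UMIs), and in ASPCs at 20.7 and 12.04 CPM (15 and 40 UMIs). Adipocytes did not separate from ASPCs in the WT-labelled library, and ASPCs stood 2.09 times higher (1.34 to 3.23) in the KO-labelled library. Its highest level was in endothelial nuclei labelled WT, 67.9 CPM from 11 UMIs in 9 of 92 nuclei, which was 3.28 times that of ASPCs (1.36 to 7.65). Endothelial nuclei labelled KO held 2 UMIs (8.16 CPM), 0.120 times the other library (0.0129 to 0.551) before any account of intron length. The gene overlaps Hoxa3 on its own strand and Hoxaas3 on the other, so its counts are uncertain where reads were shared.

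Hoxa7 (ENSMUSG00000038236, chr6:52215623-52218573) was counted in adipocytes, ASPCs and, in the KO-labelled library, myocytes. Adipocytes held 21.1 CPM in the WT-labelled library (42 UMIs) and 27.6 in the KO-labelled library (239 UMIs), and ASPCs 26.2 and 19.0 CPM (19 and 63 UMIs). In the KO-labelled library adipocytes were 1.45 times ASPCs (1.10 to 1.95), the only member with an interval wholly on the adipocyte side, and in the other library the ratio was 0.807 (0.459 to 1.47). Myocytes labelled KO were higher still at 78.0 CPM (21 UMIs in 16 of 53 nuclei), 2.83 times adipocytes (1.72 to 4.42). Endothelial nuclei held 37.0 and 20.4 CPM from 6 and 5 UMIs. The antisense gene Hoxaas3 overlaps it.

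Hoxc8 (ENSMUSG00000001657, chr15:102990539-102994275) and its neighbours Hoxc9 (ENSMUSG00000036139, chr15:102977032-102984444) and Hoxc10 (ENSMUSG00000022484, chr15:102966796-102971898) mark levels from the trunk to the hindlimb, in the order of their numbers. Hoxc8 was at 110 CPM in adipocytes labelled WT (219 UMIs, 96.1 to 126) and 37.3 in those labelled KO (323 UMIs, 33.3 to 41.6), and in ASPCs at 97.9 (71 UMIs) and 35.5 CPM (118 UMIs). The classes did not separate within either library, with adipocyte to ASPC ratios of 1.13 (0.858 to 1.49) and 1.05 (0.848 to 1.31). Endothelial nuclei held 1 UMI in each library.

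Hoxc9 was at 39.2 and 16.2 CPM in adipocytes (78 and 140 UMIs) and at 46.9 and 27.4 CPM in ASPCs (34 and 91 UMIs). Adipocytes were 0.837 times ASPCs in the WT-labelled library (0.553 to 1.29) and 0.590 times in the KO-labelled library (0.450 to 0.777). Hoxc10, the most posterior of the 3, was at 21.6 and 6.58 CPM in adipocytes (43 and 57 UMIs) and at 23.4 and 21.7 in ASPCs (17 and 72 UMIs). ASPCs labelled KO stood 3.29 times above adipocytes (2.29 to 4.75), whereas those labelled WT stood 1.08 times above (0.579 to 1.94). That contrast of libraries depended on the mitochondrial limit: at 1%, which left 57 ASPCs labelled WT, adipocytes labelled WT were 0.383 times ASPCs (0.156 to 1.13). Myocytes labelled KO held 29.7 CPM of Hoxc9 and 18.6 of Hoxc10, from 8 and 5 UMIs, and endothelial nuclei held 0 UMIs of Hoxc10.

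The 5 Hox members sat inside a wider code. Of 39 Hox genes, 18 had at least 50 UMIs over adipocytes and ASPCs of both libraries and 12 had 0 UMIs in these classes. Those at 0 were Hoxa11, Hoxa13, Hoxb1, Hoxb9, Hoxb13, Hoxc12, Hoxc13, Hoxd1 and Hoxd10 to Hoxd13. Hoxc genes were summed at 400 and 228 CPM in adipocytes and 412 and 282 in ASPCs, Hoxa genes at 160 and 99.8 and at 139 and 98.7, and Hoxb genes at 101 and 37.3 and at 107 and 84.6. Hoxd genes had 7 and 45 UMIs in adipocytes (3.52 and 5.19 CPM) and 8 and 26 in ASPCs (11.03 and 7.82 CPM).

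Hoxc6, which is not among the 10, was at 173 and 93.8 CPM in adipocytes and 165 and 102 in ASPCs. Shares of UMIs, which are not corrected for gene length, were then taken over paralog groups (genes of like number across the clusters). Group 6 took 27.3% and 28.8% of Hox UMIs in adipocytes and 28.0% and 29.0% in ASPCs. Group 8 took 20.8% and 12.1% in adipocytes and 17.3% and 9.16% in ASPCs. No UMI fell on groups 12 and 13 in either class, and group 11 had none in adipocytes and 1 and 8 in ASPCs, all of Hoxc11. Group 10 was thus the most posterior group detected in adipocytes at this depth.

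**Figure D2:**
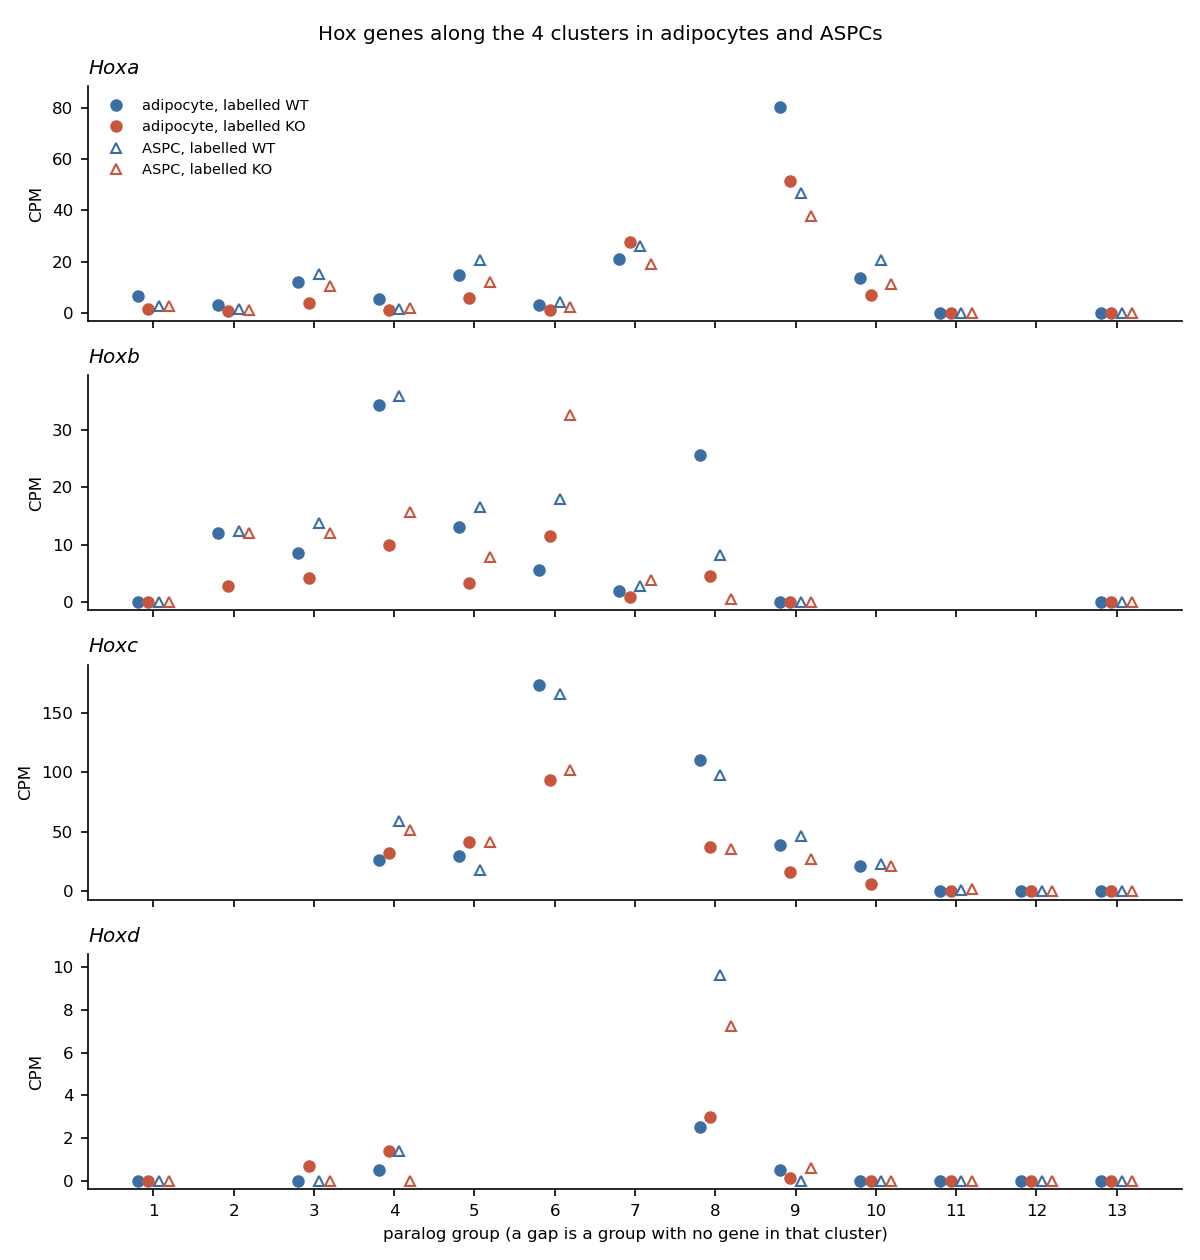
CPM (linear axes) of each Hox gene by paralog group in adipocytes (filled circles) and ASPCs (open triangles), blue for the WT-labelled library and red for the KO-labelled library. Groups 4 to 10 hold most of the counts, Hoxc6 reaches 173 CPM, and genes of groups 12 and 13 lie at 0.

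Endothelial nuclei had another code. Summed Hoxb genes were higher there than in adipocytes or ASPCs of the same library, at 414 and 278 CPM (67 and 68 UMIs). Hoxd genes were also higher, at 179 and 28.6 CPM, from only 29 and 7 UMIs, the last with an interval of 11.5 to 58.9. Hoxc genes were lower there, at 55.5 and 16.3 CPM (9 and 4 UMIs), and Hoxa genes were at 216 and 65.3 CPM. The Hoxc sum of endothelial nuclei labelled KO was thus no higher than the 17.2 CPM of immune nuclei of that library. Myocytes labelled KO held 230 CPM of Hoxc genes, 100 of Hoxa genes and 0 UMIs of Hoxb or Hoxd genes.

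Meox2 (ENSMUSG00000036144, chr12:37108540-37179534), a homeobox gene known from limb muscle precursors and quiescent vascular cells, was highest in vessels. Endothelial nuclei held 216 CPM in the WT-labelled library (35 UMIs, 150 to 300.4) and 1086 in the KO-labelled library (266 UMIs, 959 to 1224). ASPCs held 20.7 CPM (15 UMIs) and 178 CPM (591 UMIs, 164 to 193), and mural cells labelled KO 488 CPM (66 UMIs in 20 of 43 nuclei). The order endothelial, mural, ASPC separated at each step in the KO-labelled library, by 2.23 times (1.69 to 2.96) and 2.74 times (2.09 to 3.54). In the WT-labelled library endothelial nuclei were 10.4 times ASPCs (5.56 to 20.6).

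Adipocytes held 6.04 and 4.73 CPM of Meox2 (12 and 41 UMIs), which is within counting error of immune nuclei at 1.76 times (0.709 to 4.39) and 1.17 times (0.603 to 2.44). The adipocyte level labelled KO was 2.66% of the ASPC level, beside 2.44% for the summed ASPC markers. Myocytes held 0 UMIs of Meox2.

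Meox1 (ENSMUSG00000001493, chr11:101877510-101894354), the paralog known from the somite, had few UMIs in any class. ASPCs held 6.89 and 5.12 CPM (5 and 17 UMIs), endothelial nuclei 12.3 and 20.4 (2 and 5 UMIs), and adipocytes 2 and 1 UMIs. It was above the immune background in ASPCs and endothelial nuclei of the KO-labelled library and within counting error of it in those of the WT-labelled library. Gm11551 overlaps it on the opposite strand.

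The first comparison set adipocytes against ASPCs within a library, so that both sides share library, mice and diet but not depth per nucleus, whose median was 3651.5 against 1682.5 UMIs labelled WT and 7854 against 3499 labelled KO. A gene was compared where both sides together had at least 50 UMIs and was called past 2-fold by its ratio alone. In the WT-labelled library, 4 of 10 members could be compared (Hoxa7, Hoxc8, Hoxc9 and Hoxc10) and 0 were past 2-fold in either direction, where 14.3% of 7315 genes were past it upward and 14.9% downward. In the KO-labelled library, 8 could be compared, 0 were higher in adipocytes (background 17.2% of 12092 genes) and 5 were lower (background 21.5%), namely Tbx15, Tbx18, Hoxa5, Hoxc10 and Meox2. Hoxa5 was barely past 2-fold, at a log2 ratio of -1.06, and was under it with TMM factors (-0.89), totals without mt- genes and Malat1 (-0.93), intronic length taken into account (-0.66) and the 1% mitochondrial limit (-0.58). The median log2 ratio of the members was -0.19 and -1.39, and that of all genes -0.04 and -0.16. The medians are over different members, since Tbx15, Tbx18, Hoxa5 and Meox2 had under 50 UMIs in the WT-labelled library, where their ratios were 0.268, 0.0332, 0.706 and 0.292. With 10 UMIs as the minimum, 3 of 8 members were past 2-fold lower there.

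Other regional genes of mesenchyme were also lower in adipocytes. Of 29 listed, 13 had at least 50 UMIs over adipocytes and ASPCs of both libraries, and 4 had 0 UMIs in these classes (Irx6, Wt1, Barx1 and Pax3). In the KO-labelled library, 10 of 13 were past 2-fold lower in adipocytes and 0 higher. Prrx1, a limb mesenchyme factor, was at 47.9 CPM in adipocytes and 518 in ASPCs, a ratio of 0.0924 (0.0828 to 0.103), and Emx2 at 2.65 and 34.0 CPM. Twist1 and Lhx8 lay between, with Lhx8 at 12.5 CPM in adipocytes and 8.73 in ASPCs. In the WT-labelled library Prrx1, Twist2 and Nr2f2 were past 2-fold lower in adipocytes.

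The second comparison set the KO-labelled library against the WT-labelled library within a class, the contrast that the genotypes imply. Ratios moved with intron length over all genes. In adipocytes the median log2 ratio was -0.90 for genes with at most 3000 intronic bases and 1.45 for those with over 100000, and in ASPCs -0.62 and 1.59. Mitochondrial genes and Malat1 together made up 33.2% of UMIs in adipocytes labelled WT and 20.5% in those labelled KO, and 27.9% and 13.2% in ASPCs. Summed lymphocyte markers stood in adipocytes at 357 CPM labelled WT and 20.4 labelled KO (15 and 14 of 16 markers detected), and in ASPCs at 422 and 14.4 CPM (15 and 10 of 16). Summed myocyte markers stood in adipocytes at 24.1 and 88.3 CPM (2 and 8 of 9 detected) and in ASPCs at 265 and 150.15 CPM (3 and 7 of 9), beside 41208 CPM in myocytes labelled KO. All 12 adipocyte markers were detected in ASPCs, at 1130 and 2186 CPM. Their part in the differences below was not tested. Member ratios with at least 50 UMIs were therefore also taken relative to the running median of genes of like intronic length, whereas ratios of other genes are given without it.

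In adipocytes, 7 members could be compared, of which 1 was past 2-fold higher in the KO-labelled library (Tbx15, against a background of 25.6% of genes) and 4 lower (Hoxa5, Hoxc8, Hoxc9 and Hoxc10, against 17.6%). Tbx15 stood at 7.93 times (4.38 to 16.0) from a level labelled WT that was at background. Hoxc8 stood at 0.338 times (0.284 to 0.404), Hoxc9 at 0.412 (0.310 to 0.550), Hoxc10 at 0.304 (0.201 to 0.463) and Hoxa5 at 0.396 (0.245 to 0.648). After intronic length, 2 members were past 2-fold higher (Tbx15 at 3.97 times and Hoxa7 at 2.12 times, against 19% of genes) and 1 lower (Hoxc10 at 0.492 times, against 12%). The log2 ratio of Hoxc8 then went from -1.56 to -0.60, of Hoxc9 from -1.28 to -0.69 and of Hoxa5 from -1.34 to -0.35, so that none of these 3 was past 2-fold.

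In ASPCs, 8 members could be compared, of which 2 were past 2-fold higher in the KO-labelled library (Tbx15 and Meox2, against 25.3% of genes) and 1 lower (Hoxc8, against 8.57%). Tbx15 stood at 17.9 times (10.8 to 32.0), Meox2 at 8.60 times (5.17 to 15.5) and Hoxc8 at 0.363 times (0.268 to 0.494). After intronic length Tbx15 and Meox2 stayed past 2-fold, with log2 ratios of 3.19 and 2.43 (against 14.6% of genes), and 0 members were past it downward (against 8.78%). Tbx15 has 110132 intronic bases and Meox2 68635, and Hoxc8 has 1347. Hoxa5, Hoxa7, Hoxc10 and Tbx18 had intervals that span 1 in ASPCs, and Hoxc9 stood at 0.584 times (0.390 to 0.894). These ASPC ratios moved with the processing. Over the alternative settings, intronic length apart, Hoxa5 ran from 0.180 to 0.783 times and Hoxa7 from 0.451 to 0.909. Hoxc9 ran from 0.306 to 0.779 times, Hoxc10 from 0.408 to 1.09 and Tbx18 from 1.25 to 2.71.

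**Figure D3:**
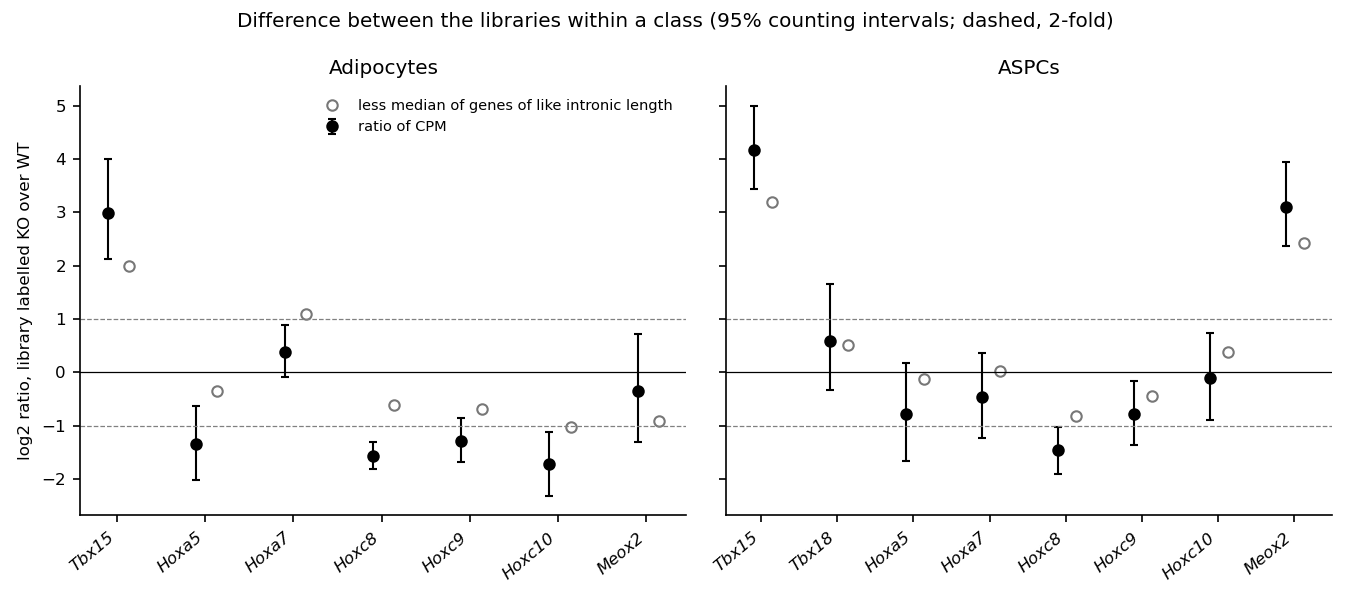
Log2 ratio of CPM, KO-labelled over WT-labelled library, for members with at least 50 UMIs, in adipocytes (left) and ASPCs (right). Black points carry exact 95% counting intervals, grey open points are the same ratio less the median of genes of like intronic length, and dashed lines mark 2-fold; Tbx15 lies above 2-fold in both classes and Meox2 in ASPCs.

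Meox2 also differed between the libraries in endothelial nuclei, which share a cluster. There the KO-labelled library stood at 5.03 times the other (3.52 to 7.37), or 2.01 on the log2 scale after intronic length. In adipocytes it stood at 0.784 times (0.404 to 1.64), both levels being at background.

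Of the Hox genes outside the list, 11 could be compared in adipocytes, with 1 past 2-fold higher in the KO-labelled library (Hoxb6, 2.09 times) and 5 lower, and 8 in ASPCs, with 1 higher (Hoxc5, 2.30 times) and 1 lower (Hoxb4, 0.437 times). Hoxb8 had a ratio of 0.180, at 25.7 CPM in adipocytes labelled WT and 4.62 in those labelled KO. Of 9 Hox cofactor genes, 8 had at least 50 UMIs. Pknox2 was at 5.51 and 101 CPM in ASPCs (4 and 334 UMIs), at 2.01 and 1.85 in adipocytes, and at 260 CPM in myocytes labelled KO. In ASPCs Pbx3, Meis1 and Pknox2 were past 2-fold higher in the KO-labelled library and Pbx2 was lower, at 0.473 times.

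ASPCs were clustered again to see how the members varied among stromal nuclei. Subclusters 0 (390 nuclei labelled KO) and 4 (121 labelled WT and 4 labelled KO) held Pi16 at 2253 and 2143 CPM and Dpp4 at 1550 and 1279 CPM, both genes of interstitial progenitors. Subclusters 1 (268 labelled KO) and 2 (151 labelled WT and 11 labelled KO) held little of either, with Pi16 at 27.4 and 65.3 CPM. Subcluster 3 (22 labelled WT and 114 labelled KO) was led by Sfrp2 and held F3 at 766 and Gdf10 at 753 CPM.

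Tbx15 was counted in every stromal subcluster labelled KO, at 346 CPM in subcluster 0, 442 in subcluster 1 and 309 in subcluster 3. Subcluster 1 stood above the others by 1.28 times (1.12 to 1.45) and 1.43 times (1.23 to 1.67). Meox2 was graded far more steeply in those nuclei, at 52.4, 179 and 376 CPM, so that subcluster 3 held 7.19 times the level of subcluster 0 (5.50 to 9.51) and 2.10 times that of subcluster 1 (1.76 to 2.51). Meox1 had 13 of the 15 UMIs of these subclusters in subcluster 1 and 0 in subcluster 0.

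Hoxc8 and Hoxc10 did not separate between stromal subclusters of either library. Hoxc8 ran from 28.9 to 42.4 CPM over the subclusters labelled KO and from 75.7 to 105 CPM over those labelled WT. Hoxc9 was higher in subcluster 4 than in subcluster 2 of the WT-labelled library, 90.4 against 32.9 CPM (2.75 times, 1.27 to 5.97), and higher in subcluster 1 than in subcluster 3 of the KO-labelled library, 37.4 against 15.0 CPM (2.50 times, 1.30 to 5.19). Hoxa5 was likewise higher in subcluster 1 than in subcluster 3, from 19 and 4 UMIs (3.17 times, 1.05 to 12.8), and Tbx18, at 35 UMIs or fewer, did not separate.

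Subclusters were then paired across the libraries by their like level of Pi16 and Dpp4, a pairing chosen after the data were seen. Tbx15 was higher in the KO-labelled library in the 3 pairs, at 15.3 times (5.94 to 56.5) for subclusters 0 and 4, 25.2 times (12.7 to 58.7) for 1 and 2, and 9.53 times (3.22 to 46.5) within 3. Meox2 was higher at 3.09 times (1.01 to 15.4), 8.18 times (4.37 to 17.3) and 17.4 times (4.78 to 144). Hoxc8 was lower at 0.320, 0.371 and 0.560 times, the last with an interval that spans 1 (0.244 to 1.50). After intronic length the log2 ratios of Tbx15 were 2.87, 3.67 and 2.32, in the same order. Those of Meox2 were 0.91, 2.35 and 3.47, the first under 2-fold. Those of Hoxc8 were -0.81, -0.79 and -0.19, none past 2-fold. Hoxc9 varied among the pairs, at 0.294 times (0.158 to 0.570), 1.14 times (0.622 to 2.20) and 0.461 times (0.124 to 2.55). Its log2 ratios after intronic length were -1.17, 0.58 and -0.68, the first past 2-fold lower. The WT-labelled library gave only 2 to 10 UMIs of Tbx15 or Meox2 in any of these subclusters.

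**Figure D4:**
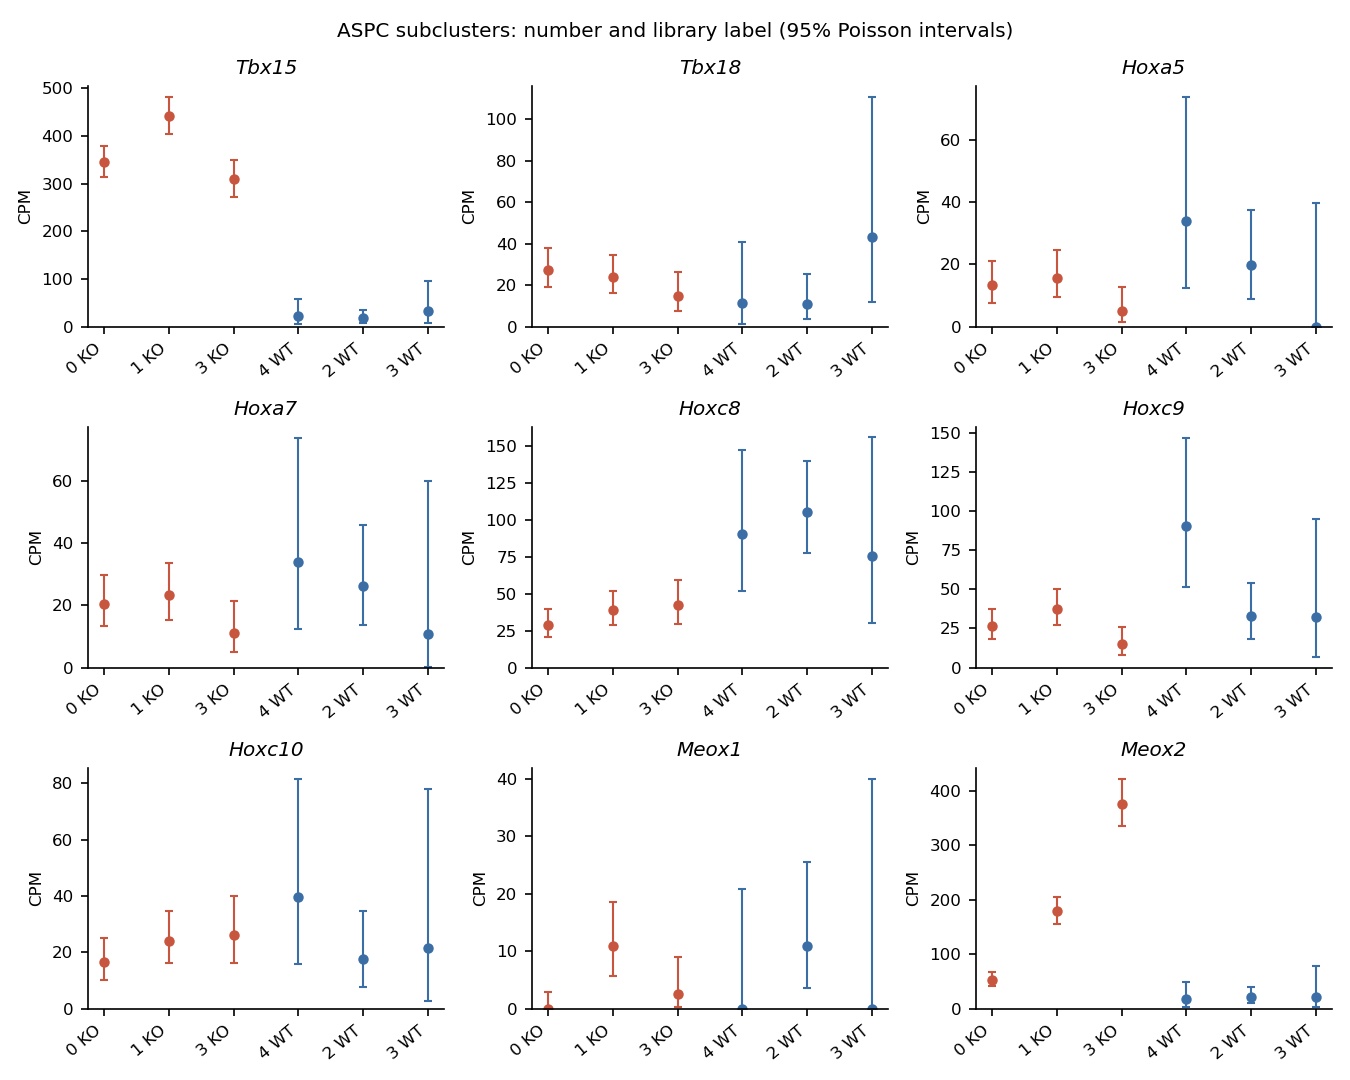
CPM (linear axes) of 9 members in the ASPC subclusters of at least 20 nuclei in a library, ordered as 0, 1 and 3 labelled KO (red) and 4, 2 and 3 labelled WT (blue), with exact 95% Poisson intervals. Meox2 climbs from 52.4 to 376 CPM over the red points, Tbx15 is high in all red points, and Hoxc8 is higher in the blue ones.

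Shares of nuclei were compared after each nucleus was thinned to 1000 UMIs, which left out 10 and 5 adipocytes, 38 and 23 ASPCs, 31 and 20 endothelial nuclei and 1100 and 63 immune nuclei. The unthinned medians were 3651.5 and 7854 UMIs for adipocytes, 1682.5 and 3499 for ASPCs, 1247 and 1644.5 for endothelial nuclei, and 1035 and 2718 for immune nuclei. Any member was seen in 17.7% and 13.6% of adipocytes, 26.6% and 44.2% of ASPCs, and 1.66% and 2.05% of immune nuclei. Tbx15 was seen in 3.13% (1.36 to 6.06) and 29.5% (26.2 to 32.8) of ASPCs, and in 0.301% of 1327 and 0 of 880 immune nuclei, the last of which allows up to 0.341% at 3 counts (exact upper limit 0.418%). Before thinning the ASPC shares were 5.10% and 61.5%.

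Meox2 was seen in 11.5% (4.74 to 22.2) and 54.9% (44.7 to 64.8) of thinned endothelial nuclei and in 0.377% and 0.227% of immune nuclei. Before thinning these endothelial shares were 18.5% and 59.0%. Hoxc8 was seen in 8.25% (5.78 to 11.3) and 3.93% (2.75 to 5.43) of adipocytes and in 9.77% and 2.62% of ASPCs, beside 0.301% and 0.568% of immune nuclei. Before thinning the adipocyte shares were 33.4% and 26.0%.

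Profiles over 12 class-by-library sums of at least 20 nuclei, as log2(CPM + 10), showed which genes ran most like each member. The closest to Tbx15 were Adcy2 (Pearson r 0.956), Pknox2 (0.946) and Rcan2 (0.946), and to Meox2 Ldb2 (0.983), a cofactor of LIM factors in endothelium. Hoxa5 ran closest to its overlapping neighbour Hoxa3 (0.976), Tbx18 to Runx1t1 (0.970), Hoxc9 and Hoxc8 to each other among the members (0.897), and Hoxc9 to Hoxc10 at 0.866. Meox1 and Meox2 reached 0.673. These values describe 12 points that share 2 libraries and their depths, and carry no test.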

How the data were processed

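Single-nucleus RNA-seq of iWAT was analysed from 2 libraries, each of 3 pooled mice. The deposited matrices hold UMI counts in whole numbers, and per their header the authors ran Cell Ranger 6.1.1. Their processing notes name mm10 and Seurat 4, and whether intronic reads were counted or free RNA removed is not given in the sources used here. Each matrix held 5000 barcodes, where the labels aimed at 5000 to 7000 cells. Barcodes with 500 genes or more and 5% or less of their UMIs on mt- genes were retained (3649 labelled WT, 2944 labelled KO). Scrublet in scanpy 1.11.5 called 0 doublets labelled WT, so the 4% with the highest scores (146) were removed there, and the 92 called were removed labelled KO.

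Nuclei were log-normalized to 10000 and clustered in Seurat 5.3.0 (R 4.3.3) on 1994 of 2000 variable genes with the members held out, with 20 principal components, 20 neighbours and Louvain resolution 0.5. Classes were named from marker lists. Counts were summed per class and library, and ratios were given exact intervals at 95% (Python 3.11.15, scipy 1.17.1). A gene was compared with 50 counts or more over both sides and called at 2-fold. A count of 0 was given a floor of 3 counts. Intronic length (GENCODE M1) was taken into account by a running median over 501 genes. Alternatives included TMM factors (edgeR 4.0.16).

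All 10 members were named, with list genes of at least 50 UMIs over adipocytes and ASPCs of both libraries (a selection of them is printed, and some results on list genes are not reported here), and for each member the genes of highest Pearson r among those with 100 UMIs or more. The members and lists were chosen with earlier results of these data known. Scripts were tested on simulated data.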

Additional observations from a re-analysis of the deposited data

Results flagged for a closer look

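Hoxa7 and Meox2 each had a pair of ratios on opposite sides of 0 on the log2 scale, and the difference was not tested. For Hoxa7, adipocytes over ASPCs gave -0.31 in the WT-labelled library and 0.54 in the KO-labelled library. For Meox2, KO-labelled over WT-labelled gave -0.35 in adipocytes and 3.105 in ASPCs, the adipocyte levels being within counting error of immune nuclei.

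A cluster of 153 WT-labelled nuclei led by Ccl21a entered no comparison, since 6 lymphoid stroma and 6 mural markers passed in it and it was left unnamed. It held 8 of the 10 members above the immune background of its library, where 12.7% of all genes were. The levels there were 119 CPM for Meox2, 45.4 for Hoxa5, 45.4 for Hoxc8, 31.4 for Hoxc9, 24.4 for Tbx18, 24.4 for Hoxa7, 21.0 for Tbx15 and 17.5 for Hoxc10.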

How the results depend on the processing

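Of 44 alternative counts of members past 2-fold, 40 were within 1.5 times the reported count. The other 4 were these. With 10 counts in place of 50, 3 members were past 2-fold between adipocytes and ASPCs labelled WT, in place of 0. With at most 1% mitochondrial UMIs, which left 156 ASPCs labelled KO, 3 were past it in place of 5. After intronic length, 3 were past it between the libraries in adipocytes in place of 5. With totals that leave out mt- genes and Malat1, 5 were past it in ASPCs in place of 3. Of 338 gene ratios, 318 moved by less than their counting interval, 20 moved and 0 changed direction with a call. Apart from intronic length, Tbx15 between the libraries ran from 13.9 to 23.7 times in ASPCs and from 6.67 to 12.4 in adipocytes, Meox2 in ASPCs from 7.14 to 13.5, and Hoxc8 in adipocytes from 0.285 to 0.379. Hoxa7 between adipocytes and ASPCs labelled WT ran from 0.475 to 1.29, and Hoxc10 from 0.383 to 1.03. TMM factors shifted the log2 ratios of all genes by 0.06 (adipocytes over ASPCs, WT-labelled), 0.17 (the same, KO-labelled), 0.04 (between the libraries, adipocytes) and -0.10 (ASPCs), and totals without mt- genes and Malat1 by 0.11, 0.13, -0.25 and -0.27. Of 100 thinned shares, 36 moved with 500 UMIs per nucleus. No paired analysis was possible because each genotype has 1 library.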
